A study of Saccharomyces cerevisiae with 40 samples.

Results

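Sphingolipid synthesis in yeast was described here by 10 genes, taken by name from the 5 gene tables of the study: IPT1, SUR1, CSG2, AUR1, LCB1, LCB2, SUR2, SCS7, LAC1, and LAG1. They are 10 of the 7125 genes that each table names. The tables come from ChIP-exo, chromatin immunoprecipitation in which lambda exonuclease trims the bound DNA up to the protein, and they cover the transcription factors (TFs) Ino2, Ino4, Hap1, Oaf1, and Pip2. There were 40 samples, 2 for each of the 5 TFs in each of 4 chemostat conditions. The duplicates are pooled in the tables, so that a gene has a single value for each TF and condition, there is no spread between replicates, and no difference below was tested. The depth of the libraries is unknown.

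All strains derive from the laboratory strain CEN.PK 113-5D, and in each the TF studied carries a C-terminal tandem affinity purification (TAP) tag, so the binding is that of a tagged protein. The conditions were nitrogen limitation with 6% glucose (N-lim), ethanol limitation with 0.5% ethanol (Et-lim), oxygen and glucose limitation with 1% glucose by the labels (Ox,Glu-lim; the study's methods give it the same glucose as Glu-lim), and glucose limitation with 0.75% glucose (Glu-lim). Cells respire in Et-lim and Glu-lim and ferment in N-lim and Ox,Glu-lim. By the study's methods, only the Ox,Glu-lim feed held Tween and ergosterol, and only that culture was sparged with nitrogen gas. The fermentative means below therefore join cultures that differ in these additions and in oxygen. Whether the additions affected the binding of any TF, Oaf1 included, was not tested.

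Yeast sphingolipids are built on a long-chain base, which serine palmitoyltransferase makes from serine and palmitoyl coenzyme A. Ceramide synthase joins the base to a very-long-chain fatty acid, hydroxylases act on both chains, and the ceramide then receives inositol phosphate, mannose, and a further inositol phosphate in the Golgi apparatus. Ino2 and Ino4 form a dimer that activates phospholipid genes, Hap1 responds to heme, and Oaf1 and Pip2 form a dimer that activates genes of fatty acid oxidation.

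A gene is listed for a TF and condition when the table gives it a binding event, and a single event is given for each. The value is log2(S/N), the event's signal over the noise on a log2 scale, and events at or below 1, an S/N ratio of 2, are not in the tables. The listed distances run from 101 to 1199 bp, and events closer to a gene are missing from its row: of 135 cases in which another row gives an event within 100 bp upstream of a protein-coding gene, 1 is in that gene's own row. An unlisted gene, or one with a low value, can therefore have a stronger event close to its start, and being unlisted does not show that the TF was absent.

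Of the 10 genes, 4 were listed (40%, against 1371 of 7125 genes, or 19.2%) and 6 were not. IPT1 had 15 entries out of the 20 combinations of TF and condition, SUR1 had 12, SUR2 had 8, and SCS7 had 5, while CSG2, AUR1, LCB1, LCB2, LAC1, and LAG1 had 0. These counts depend on the limits. IPT1 had 9 entries when an event counted only for the nearest of the genes it is listed for. SUR1 had 4 up to 600 bp, and SUR2 had 4 above a threshold of 1.5. The 40 entries fill 20% of the 200 possible ones, against 3.63% of the 142500 of all genes. The listed genes encode the enzymes of the mannose and last inositol phosphate steps and of both hydroxylations, and the genes of serine palmitoyltransferase, of ceramide synthase, and of the first inositol phosphate step had no entry.

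Oaf1 was listed at all 4 of these genes (40% of the 10, against 6.34% of all genes). Ino2 was listed at 3 (11.7% of all genes; 1 gene when events beyond 600 bp are left out), Ino4 at 3 (9.46%), Hap1 at 3 (6.65%), and Pip2 at 2 (3.3%). Entries of at least 4 TFs were found for IPT1, SUR1, and SUR2, which is 3 of 10 genes, against 166 of 7125 genes (2.33%). Above a threshold of 1.5, only IPT1 kept at least 4 TFs, against 130 genes in all (1.82%). IPT1 had entries of all 5 TFs, as did 35 genes in all (0.491%).

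By condition, the 10 genes had 6 entries in N-lim (12% of 50, against 1.6% for all genes), 13 in Et-lim (26%, against 4.15%), 9 in Ox,Glu-lim (18%, against 3.34%), and 12 in Glu-lim (24%, against 5.45%). The 2 respiratory conditions held 62.5% of the entries of the 10 genes and 66% of those of all genes, so the members' split was near that of the tables. For Ino2, 1 gene was listed in N-lim (1.87% of all genes), 3 in Et-lim (10.2%), 3 in Ox,Glu-lim (3.47%), and 3 in Glu-lim (8.86%). For Ino4 the counts were 1 in N-lim (2.33%), 2 in Et-lim (2.5%), 2 in Ox,Glu-lim (6.82%), and 3 in Glu-lim (7.51%). The zinc cluster factors differed from this order. Hap1 had 0 in N-lim (0.73%), 2 in Et-lim (2.48%), 1 in Ox,Glu-lim (3.51%), and 3 in Glu-lim (5.68%). Oaf1 had 4 in N-lim (2.3%), 4 in Et-lim (4.01%), 3 in Ox,Glu-lim (2.33%), and 2 in Glu-lim (3.44%). Pip2 had 0 in N-lim (0.758%), 2 in Et-lim (1.59%), 0 in Ox,Glu-lim (0.575%), and 1 in Glu-lim (1.74%). Oaf1 was thus the TF with the most sphingolipid genes in N-lim, and its count was lowest in Glu-lim.

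**Figure D1:**
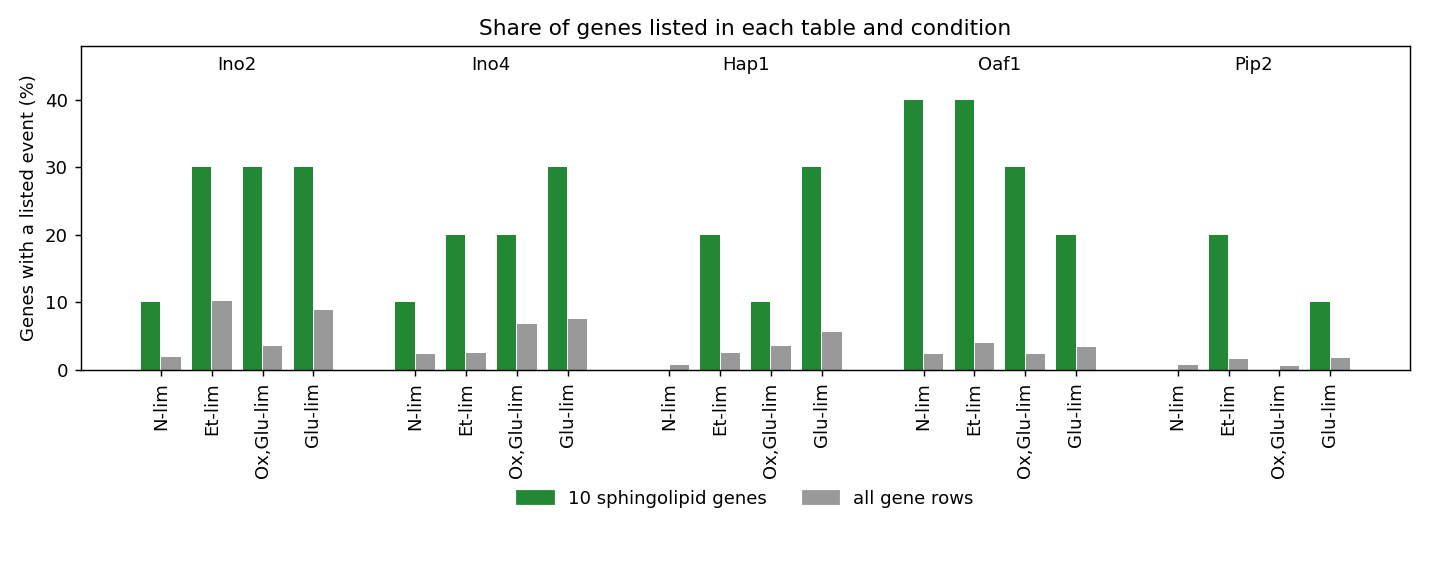
Share of genes with a listed event (percent, vertical axis) for each TF and condition, with the 10 sphingolipid genes (green) left of all 7125 genes (grey). Oaf1 reaches 40% of the sphingolipid genes in N-lim and Et-lim, against 2.3% and 4.01% of all genes, and 3 combinations hold no sphingolipid gene.

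IPT1 encodes the synthase of mannosyldiinositol phosphorylceramide, the last step of the pathway. It is YDR072C on the minus strand, at chrIV:589761-591344 of R64, the S288C reference build. The 15 events lay 401 to 614 bp upstream of its start, within a stretch of 213 bp, in the 1094 bp between IPT1 and the divergent gene SNF11, a subunit of the SWI/SNF chromatin remodeling complex. Every one of these events is listed for SNF11 too, which also has 15 entries, so the tables do not assign them to either gene. The 6 events of Ino2 and Ino4 farthest from IPT1 are nearer to the start of SNF11, and the other 9 are nearer to IPT1. The stretch is shown from the R64 plus strand at chrIV:591734-591967, with IPT1 to the left and SNF11 to the right. Capitals mark the listed k-mers (short sequences that the event caller placed at an event) and matches to CGGNNNTAA and CACGTG.
IPT1 stretch with all events: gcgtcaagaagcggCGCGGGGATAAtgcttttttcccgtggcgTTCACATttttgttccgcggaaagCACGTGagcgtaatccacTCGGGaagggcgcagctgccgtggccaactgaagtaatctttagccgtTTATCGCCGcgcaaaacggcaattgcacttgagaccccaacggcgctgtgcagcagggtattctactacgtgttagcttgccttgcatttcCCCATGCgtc

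Ino2 and Ino4 had their highest values on IPT1 in the respiratory conditions. For Ino2, log2(S/N) was 5.52 in Et-lim, 2.94 in Ox,Glu-lim, and 4.91 in Glu-lim, and IPT1 was unlisted in N-lim. For Ino4 it was 2.63 in N-lim, 6.01 in Et-lim, 3.02 in Ox,Glu-lim, and 5.25 in Glu-lim. With an unlisted condition set to the limit of 1, the mean of the respiratory conditions was 5.22 against 1.97 in the fermentative ones for Ino2, a difference of 3.25, and 5.63 against 2.83 for Ino4, a difference of 2.80. Both values in Et-lim exceeded those in Glu-lim, by 0.61 for Ino2 and 0.76 for Ino4. Relative to the median of its column, Ino4 stood at 1.33 in Et-lim and 2.75 in Glu-lim, the other order. Ino2 stood at 3.19 in Et-lim and 2.69 in Glu-lim. Centred in this way, the respiratory minus fermentative difference on IPT1 was 1.82 for Ino4 and 3.545 for Ino2. Apart from the Ino4 event in N-lim, at 591778, the events of both TFs lay between 591941 and 591957, close to CCCATGC at 591958-591964, the k-mer listed for Ino2 in Glu-lim.

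The zinc cluster factors bound IPT1 nearer to its start than these Ino2 and Ino4 events. Hap1 had 2.50 in Et-lim and 3.47 in Glu-lim and was unlisted in N-lim and Ox,Glu-lim. Oaf1 had 3.57 in N-lim, 4.60 in Et-lim, 5.37 in Ox,Glu-lim, and 4.90 in Glu-lim. Pip2 had 3.74 in Et-lim and 3.92 in Glu-lim and was unlisted in both fermentative conditions. Oaf1 was the TF with the smallest split on IPT1, a respiratory minus fermentative difference of 0.28, and its value in Ox,Glu-lim ranked 16 of the 166 genes listed there. The Oaf1 events of N-lim (591750), of Et-lim (591755), and of Ox,Glu-lim (591751) lay on the CGGNNNTAA match at 591750-591758. In Glu-lim the listed Oaf1 event was elsewhere, at 591817, 25 bp from the Pip2 event of that condition.

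SUR1 encodes the catalytic subunit that adds mannose to inositol phosphorylceramide, and CSG2 encodes its regulatory partner, which had no entry. SUR1 is YPL057C, on the minus strand at chrXVI:451909-453057. Its 12 events lay 382 to 638 bp upstream of the start, beyond the 372 bp intergenic region and inside the next gene, LCL1 (chrXVI:453430-453735, minus strand). LCL1 is listed with other events, between 454159 and 454170, with values of 1.10 to 1.46, and the 12 events inside it are not in its row. Its start, at 453735, is nearer than that of SUR1 to all 12 events. The Ino2 and Ino4 events (453693 or 453694) and the Oaf1 event of Glu-lim (453671) lie within 100 bp of that start. Events this close are missing from a gene's own row. Their absence from the row of LCL1 therefore does not assign them to SUR1. The place of Ino2 and Ino4 is shown at chrXVI:453673-453714, plus strand, with the k-mer GCACGTG, listed for 5 of the 7 Ino2 and Ino4 entries on one strand or the other, in capitals.
SUR1 Ino2 and Ino4 place: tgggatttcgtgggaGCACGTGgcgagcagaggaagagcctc

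Ino2 was at 453693 in all 4 conditions, with values of 2.62 in N-lim, 3.34 in Et-lim, 2.81 in Ox,Glu-lim, and 3.47 in Glu-lim. Ino4, unlisted in N-lim, was at 453693 or 453694, with 3.33 in Et-lim, 2.98 in Ox,Glu-lim, and 3.65 in Glu-lim. The order of these values over the conditions was the same for both TFs. Relative to the medians of their columns it was not, since in Et-lim Ino4 stood at -1.35, ranking 165 of 178, and Ino2 at 1.01. The differences were smaller than on IPT1, at 0.69 for Ino2 and 1.5 for Ino4, where the second rests on the limit of 1 in N-lim. Oaf1 had the highest values on SUR1, at 3.52 in N-lim, 4.08 in Et-lim, 4.12 in Ox,Glu-lim, and 4.85 in Glu-lim. Its place differed by condition, at 453543 in N-lim, 453582 in Et-lim, 453587 in Ox,Glu-lim, and 453671 in Glu-lim. Hap1 had a single entry on SUR1, 1.04 in Glu-lim, which ranked 400 of 405, and Pip2 had none.

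SUR2 encodes the hydroxylase that turns the long-chain base dihydrosphingosine into phytosphingosine. It is YDR297W, on the plus strand at chrIV:1056551-1057600. The 8 events lay 253 to 551 bp upstream, between SUR2 and MHR1, a gene of mitochondrial DNA recombination. The first sequence, chrIV:1055980-1056020, holds the Ino2 event of Glu-lim with its k-mer CACGTGC, and the second, chrIV:1056207-1056259, holds every Oaf1 and Pip2 event of the gene with the k-mers of Oaf1 (CCCGC) and Pip2 (CCCGA, here on the other strand). Both are from the plus strand, with the k-mers in capitals.
SUR2 Ino2 Glu-lim place: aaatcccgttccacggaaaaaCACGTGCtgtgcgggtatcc
SUR2 Oaf1 and Pip2 place: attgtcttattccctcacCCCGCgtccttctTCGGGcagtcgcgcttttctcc

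Oaf1 on SUR2 was the one combination in which the fermentative conditions were higher. Its log2(S/N) was 3.71 in N-lim, 2.42 in Et-lim, and 4.55 in Ox,Glu-lim, and the gene was unlisted in Glu-lim. The respiratory mean was 1.71 with Glu-lim set to 1, against a fermentative mean of 4.13, a difference of -2.42. The events lay within 11 bp of each other. Pip2 had an entry in Et-lim, 2.74 at 1056239, 12 bp from the Oaf1 event of that condition. This Pip2 event is listed for MHR1 too, but it lies past the end of that gene, which ends at 1055892 on the plus strand. The values of Ino2 and Ino4 on SUR2 were near the limit. Ino2 had 1.43 in Et-lim, 1.15 in Ox,Glu-lim, and 1.04 in Glu-lim, and Ino4 had 1.33 in Glu-lim. They ranked in the lower part of their tables, with 615 of 631 for Ino2 and 469 of 535 for Ino4 in Glu-lim, and the events of the pair in Glu-lim were 139 bp apart.

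SCS7 encodes the hydroxylase of the very-long-chain fatty acid of ceramide. It is YMR272C, on the minus strand at chrXIII:809623-810777, and its 5 events, all of Hap1 or Oaf1, lay 190 to 238 bp upstream, closer than on the other listed genes. They are shown at chrXIII:810956-811024, plus strand, with the listed k-mers in capitals. The Oaf1 and Hap1 k-mers at the right end overlap.
SCS7 stretch with all events: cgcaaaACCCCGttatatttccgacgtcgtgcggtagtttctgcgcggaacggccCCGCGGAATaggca

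On SCS7, Hap1 had 2.04 in Et-lim, 2.89 in Ox,Glu-lim, and 2.08 in Glu-lim and was unlisted in N-lim. Oaf1 had 1.69 in N-lim and 2.54 in Et-lim and was unlisted in Ox,Glu-lim and Glu-lim. None of the 5 values reached the median of all genes listed in its column. The Hap1 event in Et-lim, at 810966, was apart from the others, which lay between 811008 and 811014, and it is also listed for YMR272W-B. That divergent gene starts at 811089, nearer than the start of SCS7 to all 5 events. The events between 811008 and 811014 lie within 100 bp of its start, where events are missing from a gene's own row. Their absence from the row of YMR272W-B therefore does not assign them to SCS7.

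**Figure D2:**
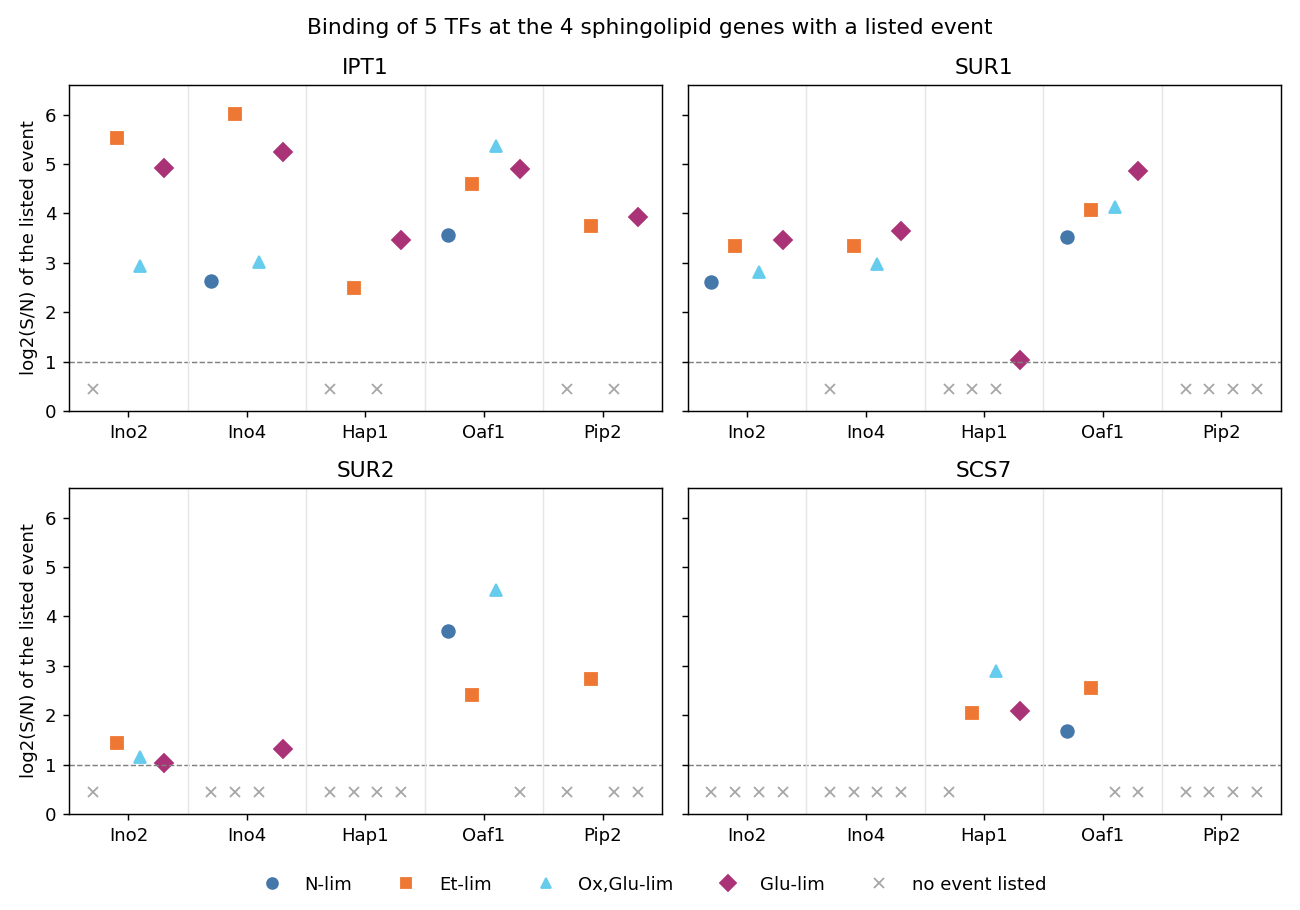
log2(S/N) of the listed event (vertical axis) of each TF in each condition for the 4 listed sphingolipid genes, with the limit of 1 as a dashed line and crosses where no event is listed. On IPT1 the Ino2 and Ino4 values in Et-lim and Glu-lim lie between 4.91 and 6.01, above those in N-lim and Ox,Glu-lim, and on SUR2 the Oaf1 values in N-lim and Ox,Glu-lim lie above that in Et-lim.

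Besides CSG2, 5 genes had no entry. LCB1 and LCB2 encode the subunits of serine palmitoyltransferase, LAC1 and LAG1 the ceramide synthases, and AUR1 the inositol phosphorylceramide synthase that the drug aureobasidin A inhibits. The nearest event listed for any gene was 3595 bp from the start of LAG1, 8882 bp from LCB1, 11480 bp from LAC1, 12415 bp from CSG2, 15270 bp from LCB2, and 18509 bp from AUR1. The median of these 6 distances was 11947.5 bp, against 5613 bp over the 4745 protein-coding genes without an entry. An event within 100 bp of one of these starts would be seen only if the tables also gave it to another gene.

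Over the listed genes, 24 of the 40 values were above the median of all genes in their column. IPT1 had 13 of 15 above it, SUR1 9 of 12, SUR2 2 of 8, and SCS7 0 of 5. The median log2(S/N) of the sphingolipid entries was 4.08 for Oaf1, against 2.75 over all entries of that TF. It was 3.74 against 2.46 for Pip2, 3.18 against 2.73 for Ino4, 2.88 against 2.36 for Ino2, and 2.29 against 2.96 for Hap1. As deposited, Hap1 was the one TF whose sphingolipid entries had the lower median, and up to 600 bp, where the Ino2 events of IPT1 and SUR1 drop out, the Ino2 median was 1.15.

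With unlisted conditions set to 1, the respiratory conditions had the higher mean in 14 of the 15 combinations of gene and TF. Oaf1 on SUR2 was the exception. Over all genes the share was 77.3% of 2668 combinations. A combination listed in respiratory conditions only can come out no other way, which applies to all genes too. Among the 15 these were IPT1 with Hap1 and Pip2, SUR1 with Hap1, and SUR2 with Ino4 and Pip2. Of the 14, SUR1 with Hap1 exceeded 0 by 0.02. SUR2 with Ino4 (0.16) turned to -0.82 when each value was centred on the median of its column. SCS7 with Hap1 (0.12) turned to -0.82 when N-lim, where it is unlisted, was left out. The median difference was 1.5 for Ino4 against 0.24 over all its genes, and 1.85 for Pip2 against 0.48. Centred on the column medians, the sphingolipid medians were 0.52 for Ino4 and 1.00 for Pip2. Centring shifts every gene of a TF by the same amount, so these centred medians cannot be set against the uncentred ones of all genes. Without centring, the median difference for Ino2 was 0.69 against 0.70, for Hap1 0.12 against 0.44, and for Oaf1 0.35 against 0.53. The direction was therefore the common one of the tables, and the medians of 3 of the 5 TFs were not above those of all genes. Medians of 2 to 4 genes stand on single values.

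**Figure D3:**
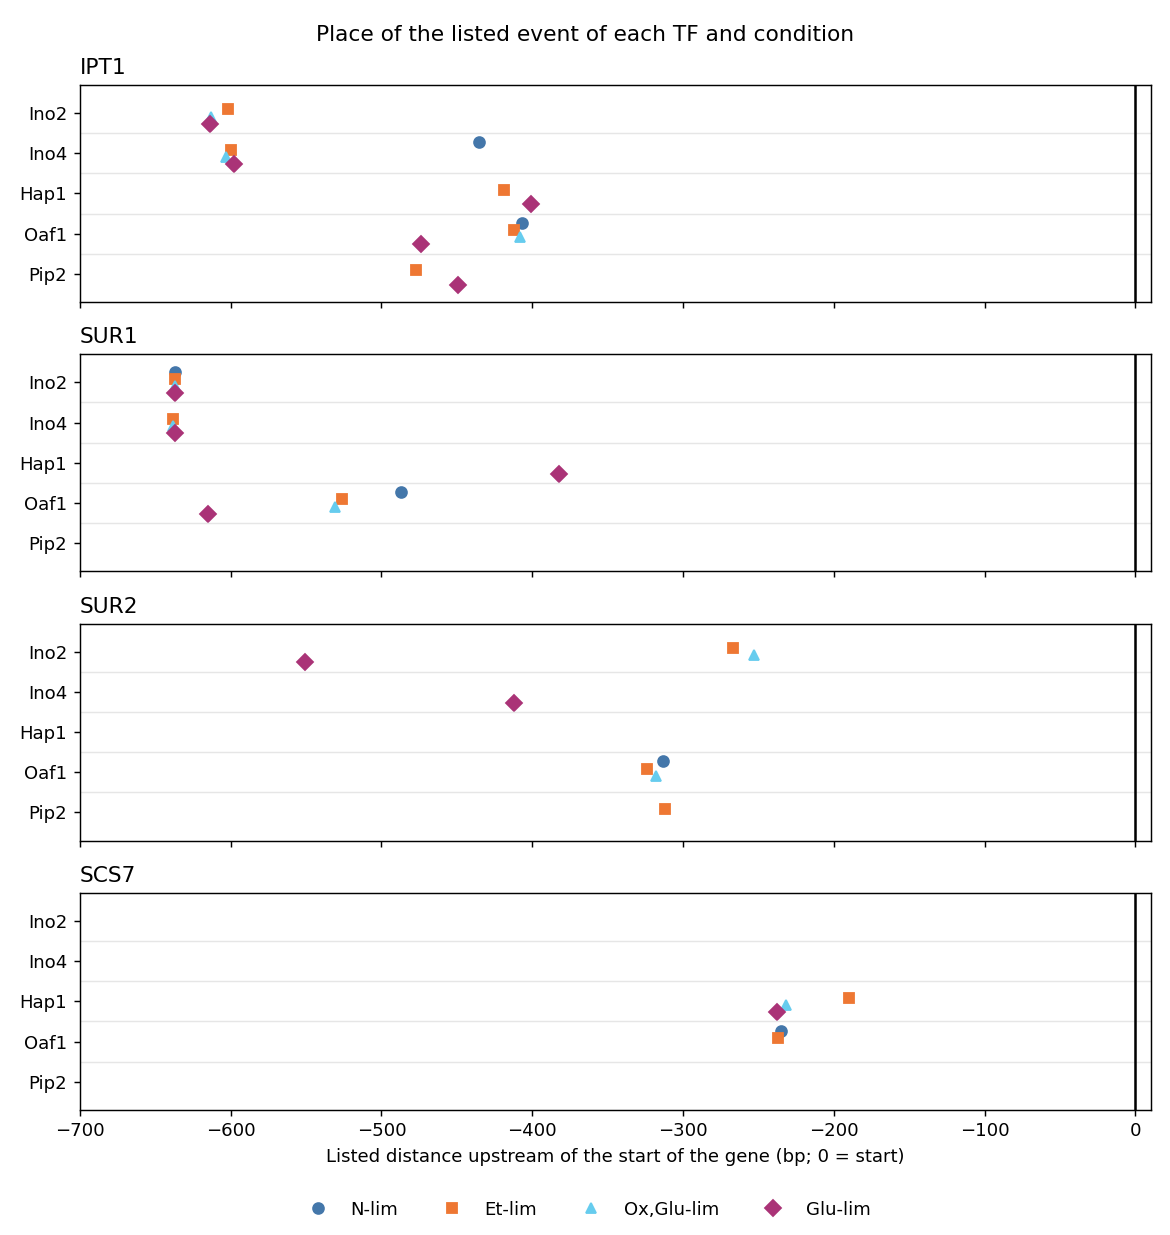
Distance of the listed event upstream of the gene start (bp, horizontal axis, 0 at the start) for each TF (rows) and condition (symbols) on the 4 listed genes. Ino2 and Ino4 share a place on IPT1 and on SUR1, Hap1 and Oaf1 share the region 190 to 238 bp from SCS7, and the Oaf1 events on SUR1 are spread from 487 to 615 bp.

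In the same condition and on the same gene, 8 of 43 pairs of events of different TFs were within 20 bp of each other. Over all genes the share was 36.6% of 2829 pairs. These 2 shares differ in make-up, since pairs of Ino2 and Ino4 were 7 of the 43 but 923 of the 2829, and they cannot be compared directly. Ino2 and Ino4 made up 6 of the 8, out of 7 such pairs, against 80.2% over all genes. Hap1 and Oaf1 were this close in 1 of 4 pairs (IPT1 in Et-lim, against 23.7%) and Oaf1 and Pip2 in 1 of 3 (SUR2 in Et-lim, against 35.8%). No Ino2 or Ino4 event was within 20 bp of an event of another kind of TF. Over all genes such pairs were uncommon too, from 0% for Ino4 and Pip2 to 12.4% for Ino4 and Hap1. The limit matters here, since the Ino2 and Oaf1 events on SUR1 in Glu-lim were 22 bp apart and 15 of the 43 pairs were within 50 bp.

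Known motifs of the TFs were absent within 20 bp of these events, except for Oaf1. The motifs searched on both strands were CACATGC with the shorter cores CATGTG or CATATG for Ino2 and Ino4, CCGATA and a longer motif with a pair of CCG triplets for Hap1, CGGNNNTAA and CCGNNNTNA for Oaf1, and CCGNNNTA for Pip2. Some of them overlap, since CCGNNNTA can lie within CCGNNNTNA. A motif of the event's own TF was within 20 bp at 3 of 36 distinct events, all of them Oaf1 on IPT1, against 31.3% of the 3110 events of all genes. These shares differ in make-up, since Oaf1 gave 13 of the 36 events but 590 of the 3110, and they cannot be compared directly. For Oaf1, CGGNNNTAA was at 3 of 13 events, all at the same match, against 17.1% of all its events. CCGNNNTNA was at 0 of 13, against 11.4%. CACATGC was absent from the 800 bp upstream of all 10 genes and present in 5.84% of 5997 protein-coding genes.

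CACGTG, searched after the k-mers of SUR1 and SUR2 had been seen, was upstream of IPT1, SUR1, SUR2, and the unlisted LAC1, and of 9% of protein-coding genes. Distances here run to the middle of the motif. CACGTG lay 2 bp from the nearest events on SUR1, those of Ino2 and, in Glu-lim, of Ino4. On SUR2 it lay 3 bp from the nearest event, that of Ino2 in Glu-lim. On IPT1 it was at 591801-591806, where the nearest event, 11 bp away, was that of Pip2 in Glu-lim. Among all Ino2 entries with a k-mer, 7.22% of the 1261 k-mers held CACGTG, as did 9.16% of the 884 of Ino4.

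Other genes of sphingolipid metabolism were read from a list of 28, of which 27 were found and 9 were listed (33.3%, against 19.2% of all genes), with 26 entries (4.81% of 540, against 3.63%). Of the 27, Hap1 was listed at 4 (6.65% of all genes), Oaf1 at 4 (6.34%), Ino2 at 3 (11.7%), Ino4 at 3 (9.46%), and Pip2 at 2 (3.3%). Among genes of sphingolipid breakdown and transport, ISC1, which cleaves inositol phosphosphingolipids, had 2.17 in Et-lim, 1.96 in Ox,Glu-lim, and 1.81 in Glu-lim for Ino2. Ino4 had 2.40 on ISC1 in Ox,Glu-lim and 1.95 in Glu-lim, and the k-mer of both TFs in these conditions was CACGTGC. RSB1, a long-chain base transporter, had 2.82 for Oaf1 in Et-lim and 2.70 for Hap1 in Glu-lim, and entries of Ino2 and Ino4 below these. The ceramidase genes YPC1 (3.02) and YDC1 (1.48) were listed for Hap1 in Glu-lim, and YPC1 had 2.28 for Oaf1 in Ox,Glu-lim.

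Of the fatty acid elongation genes, ELO1, FEN1, and IFA38 were listed, and SUR4 (ELO3), TSC13, and PHS1 were not. ELO1 had 1.41 in Et-lim and 6.29 in Glu-lim for Pip2 and 3.29 in N-lim and 4.19 in Ox,Glu-lim for Oaf1, all at the same base. In the same group FEN1 (ELO2) had 2.60 for Ino4 in Ox,Glu-lim and 1.60 for Ino2 there and in Glu-lim, and IFA38 had 2.24 for Oaf1 in N-lim. YPK2, a protein kinase of sphingolipid control, had entries of Pip2 alone, at 2.32 in N-lim, 3.99 in Et-lim, and 4.02 in Glu-lim. TCB1, a tricalbin of contacts between the endoplasmic reticulum and the plasma membrane, had 1.26 for Hap1 in Glu-lim.

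The profile of IPT1 over the 20 combinations, with unlisted ones set to 1, was compared with 189 genes that had at least 8 entries and no shared event. The highest Pearson correlations were those of YEL020C-B (0.81), ADR1 (0.79), and GID8 (0.73). ADR1 encodes an activator of genes for ethanol and fatty acid use, and GID8 a subunit of a ubiquitin ligase that acts on gluconeogenic enzymes. The 20 points share libraries and limits, and the correlation describes these tables only.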

How the data were processed

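The ChIP-exo samples of 5 TFs in 4 conditions were used through the 5 gene tables, with 20 columns from each (100 in all). To make the log2 values, the authors aligned reads to R64-2-1 with Bowtie2, dropped those of low quality, and cut 70 bases off the 3′ end. GEM was run by them on both duplicates together to call events, whose signal was set against the noise averaged for each replicate. For Pip2 the deposited log2(S/N) columns were read as a score, because short rows broke the column layout, and were used like the other log2 values. Events above 1 were retained by the authors, joined by BEDTools to genes up to 1200 bp away, and tabulated with 1 event for every gene. The labels also name SAMtools; versions are not given in the sources used here.

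Names of genes were matched to the R64 annotation (6209 of 7125). A row without a gene name (1 in each of the tables) was left out. For genes on the minus strand the listed distance is 1 bp more than that from reference coordinates. Sequences are those of the S288C reference (RefSeq R64), whereas the strains derive from CEN.PK. The work was done in Python 3.11.15 with NumPy 2.4.6, pandas 2.3.3, and SciPy 1.17.1, and figures were drawn with matplotlib 3.10.9. The motif search and the ranking of genes by correlation were tested on simulated data. The members and lists were chosen with earlier results of these data known. Named genes were the 10 members, genes sharing an event with them, listed genes of the other sphingolipid list, and the 3 genes most like IPT1; LCL1 was added after its values were seen. Alternatives were thresholds of 1.5 and 2, a distance of 600 bp, the nearest gene only, upstream events only, other denominators, other values for unlisted conditions, centring on the column median, and other distances and windows. The nearest gene was taken among the genes listed with the same event, so a closer gene without that event in its row did not count.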

Additional observations from a re-analysis of the deposited data

How the results depend on the processing

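The values above rest on pooled duplicates of unknown depth, on 1 listed event for each gene, and on distances of 101 to 1199 bp, and leaving out a replicate was not possible because the tables do not separate them. No paired analysis was possible because the results come from no test. Of 199 alternative values, 124 stayed as reported within the limits set, 72 moved, and 3 turned in sign, and the cause was not tested except where the alternative itself drops entries. Some of the 124 could not have differed. The 6 genes without an entry gain none under a filter, and all 40 entries were already upstream. The 124 is therefore no measure of how stable the results are. With a distance of up to 600 bp, which drops the farther Ino2 and Ino4 events of IPT1 and SUR1, the Ino2 entries were 3, at 1 gene, and the Ino4 entries 4. With only the nearest gene listed for an event, the Ino4 entries were 5.

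The median log2(S/N) of the sphingolipid entries of Ino2 (3.34), Ino4 (3.33), and Hap1 (2.50) had the value given here under thresholds of both 1.5 and 2, and that of Oaf1 was 4.10 under 2. Up to 600 bp it was 1.15 for Ino2, 3.94 for Ino4, and 3.89 for Oaf1. With only the nearest gene listed for an event, it was 2.62 for Ino2, 2.98 for Ino4, and 2.50 for Hap1. The share of all gene and condition entries filled over protein-coding genes only was 6.68% (Ino2), 5.17% (Ino4), 3.48% (Hap1), and 3.32% (Oaf1). Over genes with an entry of any TF it was 31.7% (Ino2), 24.9% (Ino4), 16.1% (Hap1), 15.7% (Oaf1), and 6.05% (Pip2).

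The median respiratory minus fermentative difference, with each value centred on its column median, was 0.99 (Ino2), 0.52 (Ino4), 0.36 (Hap1), 0.13 (Oaf1), and 1.00 (Pip2), and SUR2 with Ino4 turned to -0.82. With unlisted conditions set to 0 it was 2.0 for Ino4, 0.62 for Hap1, and 2.60 for Pip2. Over listed conditions only it was 1.66 for Ino4, 0.46 for Oaf1, and -0.82 for Hap1, the last resting on SCS7 alone (-0.82). Within 50 bp, 15 pairs of events were together. With CACGTG added for Ino2 and Ino4, an alternative chosen after seeing the data, 7 events had a motif of their TF. At a threshold of 1.5, tried for this count after seeing the data, 1 gene had entries of at least 4 TFs.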
